A study of Mus musculus with 12 samples.

Results

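The genes described are 9 components and regulators of the complement system (C3, C4b, C1s1, C1ra, Serping1, Cfb, Cd55, Cd59a and C3ar1) among the 55401 genes listed for adult neural stem/progenitor cells (aNSPCs). They were picked by name with values of these samples already known, so their differences are given as a description without a test. The aNSPCs came from the forebrain of C57BL/6 mice aged 8 to 10 weeks and all samples were grown in medium with EGF and FGF-2 before RNA-seq. The 12 samples form 4 groups of 3, namely Ctrl and 1 mM NAD+ under proliferating conditions, and Ctrl and 1 mM NAD+ under differentiation conditions, where all 6 samples had 1 µM retinoic acid and 5 µM forskolin. A treatment field calls each of the 12 samples untreated although 6 titles carry NAD+, and the groups follow the titles. How long the RNA-seq cultures were exposed to NAD+ is not given in the sources used here, and the labels do not say whether the 3 samples of a group came from separate cultures. The study describes the samples of a group as biological repeats, without saying what was repeated, so intervals and p-values measure the spread between these samples.

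Complement is a cascade of secreted proteases and their substrates that tags surfaces for uptake by phagocytes and can end in a membrane pore. The classical pathway starts when C1q binds a target and turns on the proteases C1r and C1s, which cut C4 and C2 into an enzyme that cleaves C3, whereas the alternative pathway builds a similar enzyme from C3 and factor B. C3 is where the pathways meet. Serping1 blocks C1r and C1s, Cd55 and Cd59 protect host membranes, and C3ar1 is the receptor for the C3a fragment. In the brain, astrocytes are a known source of C3 and C4, and microglia are a known source of C1q and of complement receptors.

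The upstream sequence of C3 is shown because C3 is the member with the largest difference between the NAD+ group and Ctrl, and that of C1s1 is shown beside it as a member whose groups overlapped. Both are the 250 bases before the RefSeq start site in GRCm38.p6 (mm10), read 5′ to 3′ on the gene's strand, with capitals marking matches to the motifs searched. The C3 window is chr17:57228137-57228386 on the minus strand and the C1s1 window is chr6:124542360-124542609 on the minus strand. For C3 1 window was listed and for C1s1 2 were, of which only the first was searched and is shown.
C3: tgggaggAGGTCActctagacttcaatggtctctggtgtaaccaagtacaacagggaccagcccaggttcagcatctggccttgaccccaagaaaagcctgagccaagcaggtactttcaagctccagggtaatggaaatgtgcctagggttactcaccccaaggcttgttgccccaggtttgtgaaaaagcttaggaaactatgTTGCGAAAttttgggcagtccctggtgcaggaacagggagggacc
C1s1: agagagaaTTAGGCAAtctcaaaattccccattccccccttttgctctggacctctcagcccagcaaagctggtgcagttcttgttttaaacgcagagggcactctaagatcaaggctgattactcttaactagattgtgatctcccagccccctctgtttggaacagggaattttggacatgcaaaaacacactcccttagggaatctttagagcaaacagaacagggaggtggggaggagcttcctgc

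On both strands, 7 motifs were searched, namely TTGCNNAA (the core bound by C/EBP factors), TTCNNNGAA (STAT), TGANTCA (AP-1), AGGTCA (a nuclear receptor half-site), TGACGTCA (the cAMP response element), TATAAA (the TATA box) and the NF-kB consensus. The C3 window held TTGCGAAA, which fits the C/EBP core, starting 45 bases before the start site, and AGGTCA starting 243 bases before it. The C1s1 window held the C/EBP core on the opposite strand, starting 242 bases before the start site. The C/EBP core was present in 9.6% of the 32851 windows of the same length, AGGTCA in 14.0%, the STAT motif in 7.0%, the AP-1 motif in 6.7%, the cAMP response element in 1.5%, the TATA box in 12.4% and the NF-kB consensus in 7.3%. Of the 9 members, 6 had an entry, and C4b, Serping1 and Cfb had none. The C1ra start site in RefSeq lies 216 bases inside the C1ra gene of GENCODE M21, so that window is not shown. A match is a description of letters and not evidence of binding.

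In mm10 (GENCODE M21), all 9 members are protein-coding. C3 lies on chromosome 17 from 57203970 to 57228136 on the minus strand, and none of the 50-base windows of its transcripts occurred in a transcript of another gene. C4b (chromosome 17, 34728380 to 34743882, minus strand) shared 34.6% of its windows with its copy C4a. C1ra (chromosome 6, 124512405 to 124523443, plus strand) shared 48.0% with C1rb, and C1s1 (chromosome 6, 124530345 to 124542359, minus strand) shared 21.9% with C1s2. The antisense gene Gm16567 runs through C1s1 for 11400 bases, and since the use of strand in counting is not stated, reads of the pair cannot be told apart. Cfb (chromosome 17, 34856374 to 34862518, minus strand) shared 73.0% of its windows with Gm20547, a read-through gene on the same strand that spans Cfb and reaches into C2. Serping1 (chromosome 2, 84765387 to 84775444, minus strand) and C3ar1 (chromosome 6, 122847138 to 122856161, minus strand) shared no window with another gene. Cd59a (chromosome 2, 104095801 to 104115354, plus strand) shared 3.87% with Cd59b, and Cd55 (chromosome 1, 130439027 to 130462744, minus strand) shared 8.0% with Cd55b. Only uniquely mapped reads were counted, so the levels of C4b, C1ra and C1s1 are uncertain to the extent of the stretches shared with their copies. Cfb and Gm20547 overlap on the same strand, and how reads of the overlap were assigned is not stated. The level of Cfb is therefore uncertain as well.

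Expression is in FPKM, a fragment count corrected for transcript length and for the total of mapped fragments, as deposited to 2 decimals. Such rounded values do not give back read counts, so the depth is unknown and a value of 0 means only that a gene is listed at 0. The FPKM values of a sample summed to between 308828 and 314683 in the proliferating NAD+ group and to between 324252 and 349649 under differentiation conditions. In proliferating Ctrl they summed to 363330 in Ctrl 1 and to 311162 and 314233 in the other two. Differences are on the log2(FPKM + 0.1) scale, which understates the change of low genes, with their standard error (SE) and 95% interval from limma fits across all genes with a mean of at least 0.1 FPKM in a condition. Of the 9 members, 8 passed this filter under differentiation conditions (not C3ar1) and 6 passed under proliferating conditions (not Serping1, Cd55 or C3ar1). As a check of the labelled cells, the progenitor genes Nes (68.8 ± 18.3 FPKM, SD, n = 3) and Sox2 (225 ± 24.1 FPKM, SD, n = 3) were expressed in proliferating Ctrl, and Gfap stood at 19.1 ± 1.39 FPKM there and at 595 ± 48.1 FPKM in differentiation Ctrl (SD, n = 3 each).

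**Figure D1:**
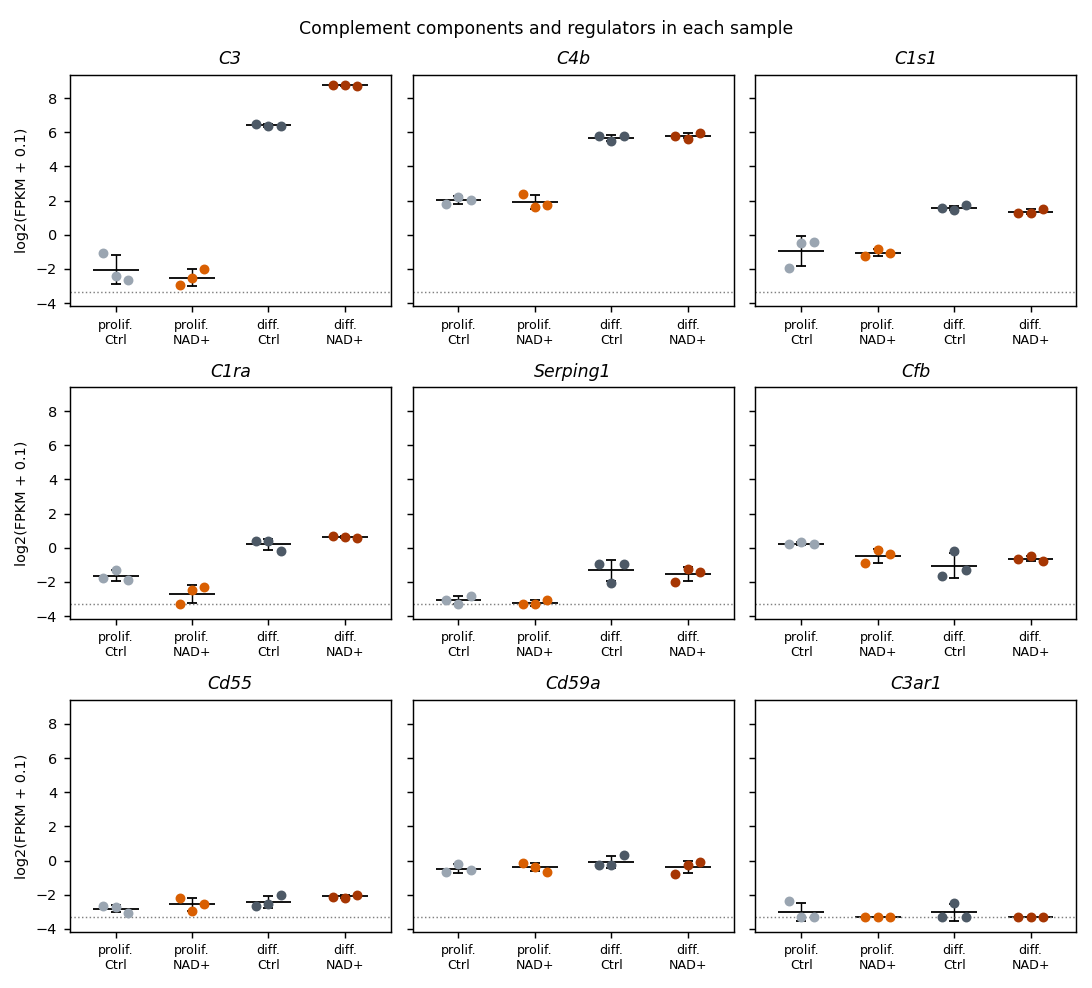
Level of each of the 9 members in the 12 samples, as log2(FPKM + 0.1), by group (prolif., proliferating; diff., differentiation). Each point is a sample, the bar is the mean with SD, and the dotted line is a gene listed at 0; C3 spans the widest range, and the differentiation NAD+ samples of C3 lie above all others of any member.

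C3 was the member with the highest level under differentiation conditions and the one that differed most with NAD+. Its FPKM values were 90.91, 81.0 and 83.73 in Ctrl and 435.63, 428.97 and 425.08 in the NAD+ group. All 3 NAD+ samples lay above all 3 Ctrl samples, and the spread inside either group was small beside the gap. The means were 85.2 ± 5.12 FPKM in Ctrl and 430 ± 5.34 FPKM with NAD+ (SD, n = 3 each), a log2 fold change of 2.34 (SE 0.05, 95% interval 2.20 to 2.47) or a ratio of means of 5.04. By level, C3 ranked between 278 and 339 among the 55401 listed genes in the Ctrl samples and between 54 and 57 in the NAD+ samples. With each library left out in turn, the log2 fold change stayed between 2.30 and 2.38.

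Under proliferating conditions C3 was close to the lowest values the files can show. Its FPKM values were 0.37, 0.09 and 0.06 in Ctrl and 0.03, 0.07 and 0.15 in the NAD+ group, and the groups overlapped. The log2 fold change was -0.46 (SE 0.51, 95% interval -1.67 to 0.75). The highest of these values was in proliferating Ctrl 1, the library with the largest FPKM sum, and without it C3 fell under the filter. The log2 change under differentiation conditions exceeded the one under proliferating conditions by 2.79 (SE 0.49, 95% interval 1.72 to 3.87), and by 2.32 without proliferating Ctrl 1.

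C4b, the other substrate that becomes covalently bound to a target, had the second highest level of the 9 genes under differentiation conditions and the highest under proliferating conditions. Under differentiation conditions it stood at 55.19, 44.76 and 55.51 FPKM in Ctrl and at 55.37, 49.66 and 61.21 FPKM with NAD+. The groups overlapped, with a log2 fold change of 0.10 (SE 0.11, 95% interval -0.17 to 0.37). Under proliferating conditions its values were 3.36, 4.61 and 4.03 FPKM in Ctrl and 5.14, 2.99 and 3.19 FPKM with NAD+, and the groups overlapped again (log2 fold change -0.11, SE 0.23, 95% interval -0.66 to 0.44).

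The proteases that start the classical pathway were expressed at low levels. C1s1, which cuts C4 and C2, stood at 2.84, 2.69 and 3.21 FPKM in differentiation Ctrl and at 2.35, 2.29 and 2.79 FPKM with NAD+. Its 2 groups overlapped (log2 fold change -0.23, SE 0.12, 95% interval -0.51 to 0.06). Under proliferating conditions C1s1 stood at 0.16, 0.62 and 0.64 FPKM in Ctrl and at 0.32, 0.46 and 0.38 FPKM with NAD+, so that the NAD+ values lay inside the Ctrl range (log2 fold change -0.10, SE 0.44, 95% interval -1.15 to 0.95).

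C1ra, which activates C1s, was the only member whose groups separated in both conditions, and in opposite directions. Under differentiation conditions it stood at 1.19, 1.23 and 0.78 FPKM in Ctrl and at 1.5, 1.47 and 1.39 FPKM with NAD+. All 3 NAD+ values were above Ctrl, with a log2 fold change of 0.44 (SE 0.19, 95% interval -0.02 to 0.89) that was 0.25 without differentiation Ctrl 3. Under proliferating conditions it stood at 0.19, 0.31 and 0.17 FPKM in Ctrl and at 0.0, 0.08 and 0.1 FPKM with NAD+. All 3 NAD+ values were below Ctrl here (log2 fold change -1.05, SE 0.39, 95% interval -1.98 to -0.13). These values are so low that the size depends on the number added before log2, with -0.21 when 1 was added and -2.29 when 0.01 was added.

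Serping1, the inhibitor of C1r and C1s, stood at 0.41, 0.14 and 0.41 FPKM in differentiation Ctrl and at 0.15, 0.32 and 0.28 FPKM with NAD+. The groups overlapped (log2 fold change -0.21, SE 0.39, 95% interval -1.16 to 0.73). Under proliferating conditions it was at 0.02, 0.0 and 0.04 FPKM in Ctrl and at 0.0, 0.0 and 0.02 FPKM with NAD+, too low to fit.

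Cfb, the protease precursor of the alternative pathway, was the member that stood higher in proliferating than in differentiation Ctrl. Under proliferating conditions its values were 1.04, 1.15 and 1.04 FPKM in Ctrl and 0.43, 0.81 and 0.67 FPKM with NAD+. All 3 NAD+ values were below Ctrl (log2 fold change -0.71, SE 0.24, 95% interval -1.29 to -0.13). Under differentiation conditions its values were 0.22, 0.76 and 0.31 FPKM in Ctrl and 0.53, 0.61 and 0.48 FPKM with NAD+, and the NAD+ values lay inside the Ctrl range (log2 fold change 0.40, SE 0.38, 95% interval -0.52 to 1.32). The read-through gene Gm20547 stood at 0.45 FPKM in differentiation Ctrl 1, 0.21 in differentiation Ctrl 3 and 0.48 in proliferating NAD+ 1, and at 0.01 or 0 in the other 9 samples. These were the 2 samples of differentiation Ctrl and the 1 of proliferating NAD+ with the lowest Cfb, and the part of this in the differences of Cfb was not tested. Without differentiation Ctrl 2 the log2 fold change of Cfb under differentiation conditions was 0.82 and without differentiation Ctrl 1 it was 0.10, and without proliferating NAD+ 1 the one under proliferating conditions was -0.49.

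The membrane regulators were low in every group. Cd55, which speeds the decay of the C3-cleaving enzymes, stood at 0.06, 0.07 and 0.15 FPKM in differentiation Ctrl and at 0.13, 0.12 and 0.15 FPKM with NAD+ (log2 fold change 0.30, SE 0.31, 95% interval -0.45 to 1.05). In proliferating cells Cd55 lay between 0.02 and 0.12 FPKM in all 6 samples. Cd59a, which blocks the membrane pore, stood at 0.72, 0.73 and 1.13 FPKM in differentiation Ctrl and at 0.48, 0.73 and 0.85 FPKM with NAD+ (log2 fold change -0.29, SE 0.26, 95% interval -0.92 to 0.34). In proliferating cells Cd59a was at 0.54, 0.78 and 0.57 FPKM in Ctrl and at 0.79, 0.66 and 0.54 FPKM with NAD+ (log2 fold change 0.07, SE 0.23, 95% interval -0.49 to 0.62). The groups of both genes overlapped in both conditions.

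C3ar1, the receptor for C3a, was listed at 0 in 10 of the 12 samples. It stood at 0.08 FPKM in differentiation Ctrl 2 and at 0.09 FPKM in proliferating Ctrl 1. Microglial markers were at or near 0 as well. Without Cd68, the other 9 genes of the microglia and macrophage list summed to between 0.14 and 0.49 FPKM in differentiation Ctrl, 0.03 and 0.33 FPKM in differentiation NAD+, 0.0 and 0.57 FPKM in proliferating Ctrl and 0.1 and 0.3 FPKM in proliferating NAD+. The highest sum of each condition was in the library with the C3ar1 reading, differentiation Ctrl 2 and proliferating Ctrl 1. Cd68, a lysosomal protein that is not limited to phagocytes, stood at 1.59 ± 0.298 FPKM in differentiation Ctrl and at 3.57 ± 0.311 FPKM with NAD+ (SD, n = 3 each). In proliferating cells Cd68 stood at 0.98 ± 0.197 FPKM in Ctrl and at 4.26 ± 2.28 FPKM with NAD+ (SD, n = 3 each). These groups did not overlap, but the difference did not pass the threshold (log2 fold change 1.91, SE 0.35, adjusted p = 0.103 by limma).

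**Figure D2:**
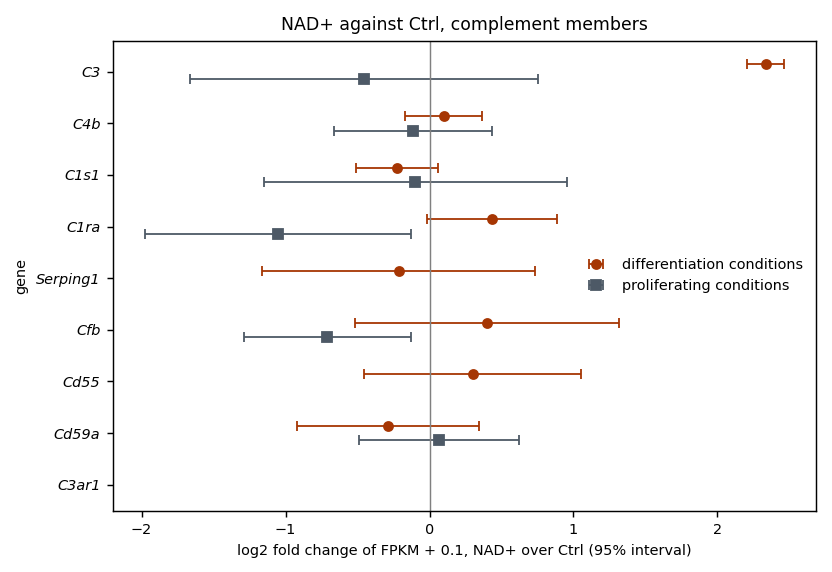
Difference between the NAD+ group and Ctrl for each member, as log2 fold change of FPKM + 0.1 with its 95% interval, under differentiation (circles) and proliferating (squares) conditions, where no mark means under the filter. C3 under differentiation conditions lies at 2.34, apart from all other marks, which lie between -1.05 and 0.44.

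Counted over the members that passed the filter, 1 of 8 (C3) was called higher and 0 lower under differentiation conditions at an adjusted p-value under 0.05, where 2.27% of all 19611 genes tested were called higher and 4.65% lower. Under proliferating conditions 0 of 6 were called in either direction by limma, where 0.0484% of all 18597 genes tested were called higher and 0.0968% lower. Of the 6, 2 had an unadjusted p-value under 0.05, and the share of all genes under that value was not counted. By the other rule, which asks for a ratio of means over 2 and an unadjusted p-value under 0.05, C3 under differentiation conditions and C1ra under proliferating conditions were called, 1 member each, where the rule called 4.05% and 3.01% of all genes. Groups did not overlap for 2 members under differentiation conditions (C3 and C1ra, both higher), where this held for 9.68% of all genes in the higher and 21.1% in the lower direction. Under proliferating conditions they did not overlap for 2 members (C1ra and Cfb, both lower), where this held for 15.5% of all genes in the higher and 8.59% in the lower direction. Since the members were picked with these values known, nothing is read from these counts. The median log2 change was 0.20 over the 8 members under differentiation conditions and -0.29 over the 6 under proliferating conditions, where it was -0.09 and 0.07 over all genes tested.

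Between the conditions, 5 members stood higher in every differentiation Ctrl sample than in any proliferating Ctrl sample, namely C3, C4b, C1s1, C1ra and Serping1. Cfb was lower in every differentiation Ctrl sample, and Cd55, Cd59a and C3ar1 overlapped. The Ctrl means were 85.2 against 0.173 FPKM for C3, 51.8 against 4.0 FPKM for C4b and 2.91 against 0.473 FPKM for C1s1. In the NAD+ groups the same 5 genes stood apart upward and the other 4 overlapped, with C3 at 430 against 0.0833 FPKM. The share of all genes that stood apart between the conditions was not counted, so nothing is read from the count of 5. The tables of the conditions may have been normalized separately, and the median log2 ratio over 11661 genes with a mean of at least 1 FPKM in both Ctrl groups was -0.23, so these levels are set side by side without a test. Within differentiation Ctrl the order of levels was C3, C4b, C1s1, C1ra, Cd59a, Cfb, Serping1, Cd55 and C3ar1, and each neighbouring pair from C1ra downward overlapped. Within proliferating Ctrl it was C4b, Cfb, Cd59a, C1s1, C1ra, C3, Cd55, C3ar1 and Serping1, and each neighbouring pair from Cd59a downward overlapped.

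Astrocyte markers were measured beside C3, since astrocytes are a known source of it and aNSPCs form astrocytes upon differentiation. The 9 astrocyte markers summed to between 1681 and 1805 FPKM in differentiation Ctrl and to between 2048 and 2155 FPKM with NAD+. Without Gfap, the other 8 summed to between 1083 and 1207 FPKM in Ctrl and to between 1081 and 1157 FPKM with NAD+, which overlap. Under proliferating conditions the 9 markers summed to between 1158 and 1234 FPKM in Ctrl and to between 946.9 and 1103 FPKM with NAD+. Of the 9 under differentiation conditions, 4 were called higher with NAD+ (Gfap, Slc1a2, Slc1a3 and Sox9), 2 were called lower (Aldh1l1 and Aldoc), and 3 were not past the threshold. Over all 19611 genes tested, 2.27% were called higher and 4.65% lower, and the markers were listed with earlier results of these data known. Gfap, the intermediate filament gene of astrocytes, had a log2 fold change of 0.72 (SE 0.07, adjusted p = 0.00613 by limma), and Aldh1l1, a folate enzyme gene of astrocytes, one of -0.61 (SE 0.05, adjusted p = 0.00494). The log2 change of C3 was thus larger than that of any of these 9 markers. In bulk RNA a difference in the number of cells of a type and a difference in RNA per cell cannot be told apart, and the part of the marker differences in the level of C3 was not tested.

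The rest of the pathway was read from a list of 51 other complement genes. Under differentiation conditions 25 of the 51 passed the filter and 9 were listed at 0 in all 6 samples. Of the 25, 2 rose with NAD+ (Cfp and Clu), 1 fell (Susd4), and 22 did not pass an adjusted p-value of 0.05 by limma. Over all 19611 genes tested, 2.27% were called higher and 4.65% lower. The list was chosen with earlier results of these data known, so nothing is read from its counts. The median log2 change of the 25 was -0.25, beside -0.09 over all genes tested. Under proliferating conditions 18 passed the filter, 12 were listed at 0 in all 6 samples, and 0 were called by limma. There 0.0484% of all 18597 genes tested were called higher and 0.0968% lower. Of the 18, 4 had an unadjusted p-value under 0.05, and the share of all genes under that value was not counted. The median log2 change of the 18 was -0.31, beside 0.07 over all genes tested.

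**Figure D3:**
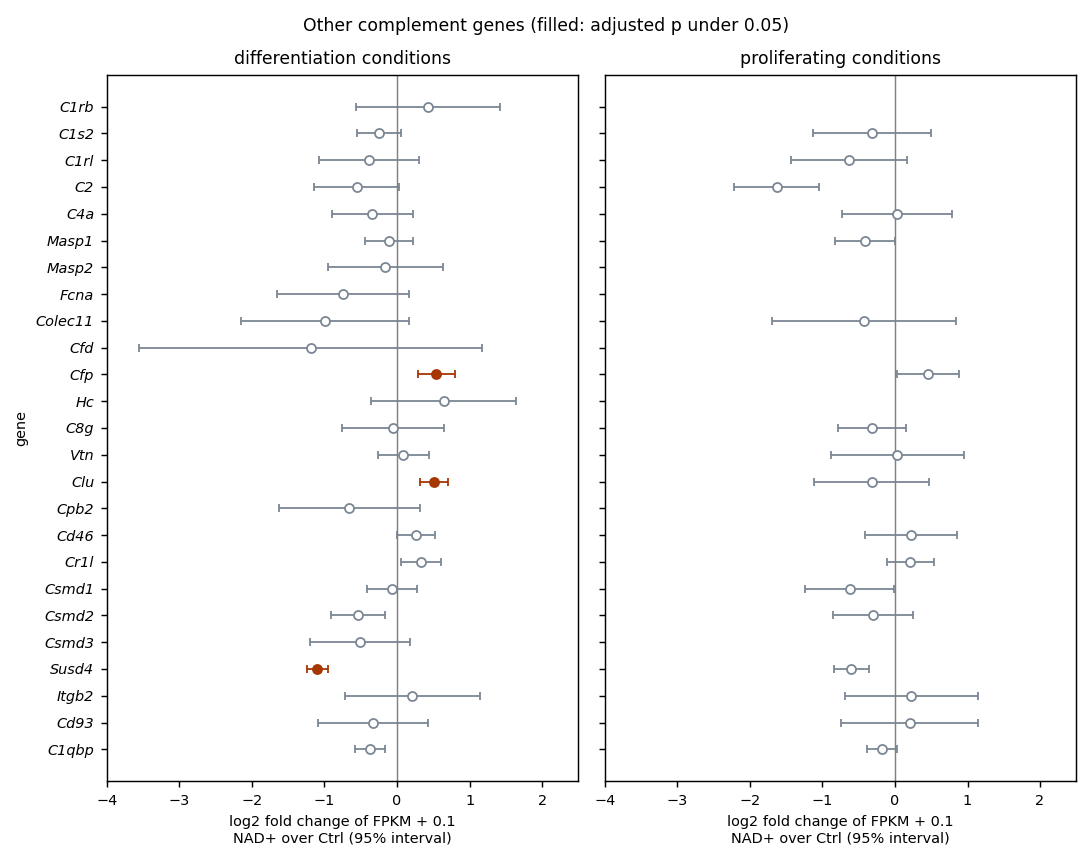
Log2 fold change of FPKM + 0.1 between the NAD+ group and Ctrl, with its 95% interval, for the 25 other complement genes that passed the filter under differentiation conditions (left) and the 18 that passed under proliferating conditions (right). Filled marks passed an adjusted p-value of 0.05, namely Cfp and Clu to the right of 0 and Susd4 to the left.

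Susd4, a membrane protein with complement control domains that is known from the brain, fell under differentiation conditions. Its FPKM values were 20.42, 19.69 and 19.41 in Ctrl and 9.33, 9.59 and 8.66 with NAD+, lower in 3 of 3 samples. The log2 fold change was -1.10 (SE 0.06, adjusted p = 0.00147 by limma). Under proliferating conditions Susd4 stood at 6.79, 6.48 and 6.32 FPKM in Ctrl and at 4.47, 4.44 and 3.91 FPKM with NAD+. The groups did not overlap there, but the difference did not pass the threshold (log2 fold change -0.60, SE 0.10, adjusted p = 0.0868). The log2 changes in the 2 conditions differed by -0.50 (SE 0.11, adjusted p = 0.0736 by limma), also not past the threshold.

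Clu (clusterin, an inhibitor of the terminal complex that astrocytes secrete) rose under differentiation conditions. It stood at 68.46, 74.92 and 78.93 FPKM in Ctrl and at 96.73, 113.86 and 106.8 FPKM with NAD+, higher in 3 of 3 samples (log2 fold change 0.51, SE 0.08, adjusted p = 0.0192 by limma). Under proliferating conditions the sample numbered 1 stood above the other two in both groups, with 19.75, 12.27 and 11.84 FPKM in Ctrl and 18.47, 8.91 and 8.86 FPKM with NAD+ (log2 fold change -0.32, SE 0.33, adjusted p = 0.664). Cfp (properdin, which stabilizes the C3-cleaving enzyme of the alternative pathway) rose as well, from 6.33, 6.11 and 6.82 FPKM to 9.41, 8.18 and 10.62 FPKM under differentiation conditions (log2 fold change 0.54, SE 0.11, adjusted p = 0.0355). Under proliferating conditions Cfp stood at 2.14, 2.41 and 1.82 FPKM in Ctrl and at 3.58, 2.52 and 2.79 FPKM with NAD+, also without overlap, and did not pass the threshold (log2 fold change 0.46, SE 0.18, adjusted p = 0.299). The call of Clu under differentiation conditions was lost without Ctrl 1 (adjusted p = 0.0675), Ctrl 2 (0.0654) or NAD+ 3 (0.0671), and that of Cfp without Ctrl 1 (0.117), Ctrl 2 (0.112), Ctrl 3 (0.0775), NAD+ 1 (0.0946) or NAD+ 3 (0.0833), while the direction of both stayed.

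**Figure D4:**
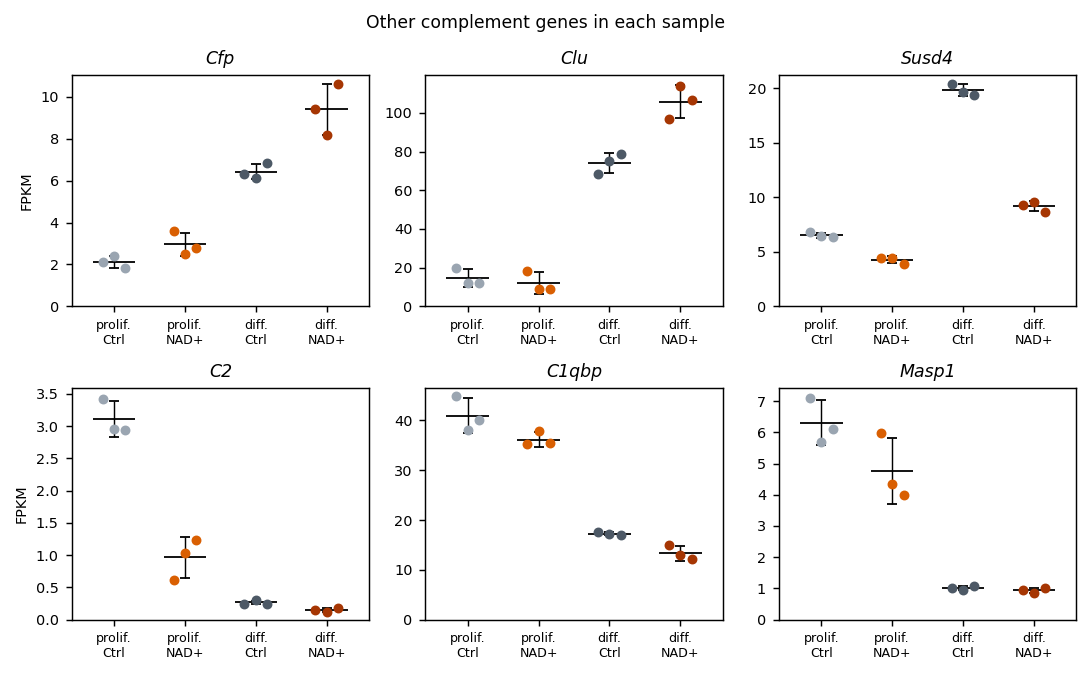
FPKM of 6 other complement genes in each of the 12 samples, with the mean and SD of each group and every axis starting at 0. Under differentiation conditions the NAD+ samples of Cfp and Clu lie above Ctrl and those of Susd4 below it, and C2 is highest in proliferating Ctrl (mean 3.11 FPKM).

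C2, which supplies the protease of the classical C3-cleaving enzyme and lies 86 bases from Cfb on chromosome 17, had the highest mean over the 12 samples in the classical list (1.12 FPKM), through its level in proliferating cells. Under proliferating conditions its FPKM values were 3.43, 2.95 and 2.94 in Ctrl and 0.62, 1.04 and 1.24 with NAD+. The groups were far apart, but the difference did not pass the threshold over all genes (log2 fold change -1.63, SE 0.25, 95% interval -2.22 to -1.04, adjusted p = 0.0736 by limma). Under differentiation conditions C2 stood at 0.25, 0.3 and 0.25 FPKM in Ctrl and at 0.15, 0.12 and 0.18 FPKM with NAD+ (log2 fold change -0.56, SE 0.24, adjusted p = 0.227). Gm20547 overlaps 19439 bases of the C2 gene, and Zbtb12 overlaps it on the opposite strand.

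C1qbp, which binds C1q and is mostly mitochondrial, was the highest gene of the receptor list. Its values were 17.52, 17.25 and 16.95 FPKM in differentiation Ctrl and 14.98, 13.0 and 12.09 FPKM with NAD+, just short of the threshold (log2 fold change -0.37, SE 0.08, adjusted p = 0.0524 by limma). Without differentiation NAD+ 1 it passed (adjusted p = 0.0309), and without any of the other 5 libraries the adjusted p was between 0.117 and 0.156. With a minimum mean of 1 FPKM it passed (0.0389), and after median-ratio scaling the adjusted p was 0.107. Masp1, a protease of the lectin pathway, stood at 6.31 ± 0.724 FPKM in proliferating Ctrl and at 4.77 ± 1.06 FPKM with NAD+ (SD, n = 3 each). Its log2 fold change was -0.41 (adjusted p = 0.328 by limma). C8g, a chain of the terminal component C8, stood at 1.54 ± 0.383 FPKM in differentiation Ctrl and at 1.5 ± 0.481 FPKM with NAD+ (SD, n = 3 each; log2 fold change -0.06, adjusted p = 0.932 by limma).

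The C1q chains and the terminal components C6 and C7, named after their values were seen, were at or near 0. C1qa, C1qb and C1qc together summed to at most 0.33 FPKM in any sample, that sample being proliferating Ctrl 1, and C6 and C7 were listed at 0 in all 12 samples. Factor D (Cfd) was at 1.09 FPKM in differentiation Ctrl 2 and at 0 in the other 11 samples.

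The NAD+ effect was set against itself between the conditions for the 20 other complement genes with a mean of at least 0.1 FPKM over the 12 samples. By limma 0 of the 20 differed at an adjusted p-value under 0.05, where 0.467% of all 19498 genes tested were called. Of the 20, 4 had an unadjusted p-value under 0.05, and the share of all genes under that value was not counted. Of these 4, Susd4 had a difference of -0.50 on the log2 scale (SE 0.11, adjusted p = 0.0736 by limma). Those of C2, Csmd1 and Clu were 1.07 (SE 0.32, adjusted p = 0.167), 0.55 (SE 0.24, adjusted p = 0.301) and 0.83 (SE 0.38, adjusted p = 0.321).

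The genes whose pattern over the 12 samples was most like that of C3 were sought among 11648 genes with a mean of at least 1 FPKM in both conditions, each centred on the mean of its own table. By the root mean square difference of log2(FPKM + 0.1), the nearest were Gm14414 (0.47), Bst2 (0.52), which tethers virus particles to cells, and Smad2 (0.55), which carries TGF-beta signals. The centred values of C3 itself had a root mean square of 0.93. Bst2 stood at a mean of 1.82 FPKM in differentiation Ctrl and 5.60 FPKM with NAD+, and at 2.98 and 3.23 FPKM under proliferating conditions. Smad2 stood at 1.68 and 4.33 FPKM under differentiation conditions and at 3.08 and 2.81 FPKM under proliferating conditions. For C1ra the nearest were Kirrel3 (0.27), Kcnmb4 (0.27) and Fam57b (0.30), where C1ra itself had a root mean square of 0.50. In proliferating cells C3 lay between 0.03 and 0.37 FPKM and C1ra between 0.0 and 0.31 FPKM, close to the lowest values the files can show. That part of each pattern depends on the number added before log2, and the search was run with 0.1 only.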

How the data were processed

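RNA-seq was done on 12 samples of mouse aNSPCs (NEBNext Ultra libraries). Per the submitters' processing notes and the study's methods, the authors mapped reads to mm10 with Hisat2 2.0.5, kept uniquely mapped reads and counted them with FeatureCounts 2.0.1, and they deposited FPKM values for each sample in a table per condition. The program behind the FPKM values is not given in the sources used here. The tables also hold the authors' fold changes and p-values, which were ignored here. The number of per-sample columns without a sample in the labels was 0. Depth is unknown, so no counting error is given.

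For each table a model on log2(FPKM + 0.1) was run in limma 3.58.1 (R 4.3.3) with a mean-variance trend (NAD+ against Ctrl, two-sided, genes with a mean of at least 0.1 FPKM, Benjamini-Hochberg over all genes), and the difference between conditions in 1 fit of the 12 samples. The code was tested on simulated data. The 9 members and the gene lists were chosen with earlier results of these data known. Of the other complement genes, those with an adjusted p-value under 0.05 in either condition and the highest by mean FPKM in each group of the list were named. Csmd1 was named beside them as 1 of the 4 with an unadjusted p-value under 0.05 for the difference between conditions. The likeness search took each member with an absolute log2 fold change over 1 in either condition and its 3 nearest genes. Alternatives changed the number added, the filter, the scaling, the replicate block, the variance model, the call rule and the libraries. Promoter sequences came from RefSeq (GRCm38.p6), and positions and shared windows of 50 bases from GENCODE M21. Markers of microglia and macrophages, astrocytes, neurons, the oligodendrocyte lineage, endothelium and mural cells, fibroblasts and meninges, ependyma and choroid plexus, and progenitors were listed, and some of their results are not reported here. Python 3.11.15, numpy 2.4.6, pandas 2.3.3 and matplotlib 3.10.9 were used.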

Additional observations from a re-analysis of the deposited data

Results flagged for a closer look

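For C1ra, every NAD+ sample lay above every Ctrl sample under differentiation conditions, as for 9.68% of all genes tested, and every NAD+ sample lay below every Ctrl sample under proliferating conditions, as for 8.59%. The log2 change was 0.44 (95% interval -0.02 to 0.89, and 0.25 without differentiation Ctrl 3) and -1.05 (95% interval -1.98 to -0.13), and C1ra passed no adjusted threshold in either condition. The log2 changes differed by 1.49 (SE 0.41), and this difference was not tested because C1ra was chosen with its values known. It was 0.46 with 1 added before log2 and 2.76 with 0.01 added, all 6 proliferating values are at or under 0.31 FPKM, and C1ra shares 48.0% of its 50-base windows with C1rb. Groups of 3 samples are too small for a search for outlying samples.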

How the results depend on the processing

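For the other complement genes under differentiation conditions, the count called higher (2) was 1 without the filter, 0 without moderation of the variance, 0 by the unadjusted p-value and ratio rule, and 0 to 2 with each library left out. The count called lower (1) was 2 with a minimum mean of 1 FPKM and 1 to 2 with each library left out. Under proliferating conditions 1 gene was called lower by the ratio rule, as was 1 member, in place of 0. For the difference between conditions, 2 other complement genes were called with 1 added before log2, in place of 0, and 0 to 1 with each library left out, the 1 (Susd4) without proliferating Ctrl 1. Of the members, C1s1 changed the sign of its difference between conditions without proliferating Ctrl 1 (0.37, from -0.13, with a range of -0.39 to 0.37 over the 12 libraries left out) and Serping1 with 0.01 added (0.51, from -0.05), and neither was called. Susd4 under differentiation conditions stayed past the threshold under all 14 alternatives (adjusted p from 0.00111 to 0.0221), and Clu and Cfp ranged from 0.0136 to 0.078 and from 0.025 to 0.117. Scaling by median ratios or quantiles moved the median difference between conditions of all genes from -0.16 to -0.02, a shift over 0.1. Same-numbered samples correlated around their group means at 0.04, 0.09 and 0.01 under differentiation and at 0.19, 0.04 and 0.10 under proliferating conditions. Differently numbered samples lay between -0.09 and 0.05 under differentiation and between -0.19 and 0.13 under proliferating conditions. Whether same-numbered samples share more than a number cannot be told from so few pairs. With the replicate block the counts of members (1 and 0) and of other complement genes (2 higher and 1 lower, and 0) were as without it. Over all genes the calls fell with the block from 1357 to 758 under differentiation conditions, from 27 to 0 under proliferating conditions and from 91 to 47 for the difference between conditions. Without moderation they were 594 and 0 in the 2 conditions, and under proliferating conditions 9 without the filter, 75 with a minimum mean of 1 FPKM and 59 after quantile normalization. For the difference between conditions they were 139 with 1 added and 63 without the filter. With each library left out they were 328 to 719, 0 to 36 and 12 to 195 in these 3 comparisons. The ratio rule gives no value for the difference between conditions, and C3 under proliferating conditions has no value without Ctrl 1. The cause of these changes was not tested.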

Other observations

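Other cell type markers under differentiation conditions gave few calls beside those described. Over all 19611 genes tested there, 2.27% were called higher and 4.65% lower. Among the progenitor genes, Vim was called higher and Pax6 lower, and of the 7 neuronal genes 0 were called by limma and 0 had an unadjusted p-value under 0.05. Of the 6 endothelial and mural genes, Kcnj8 was called higher (0.13 ± 0.01 FPKM in Ctrl and 0.587 ± 0.195 FPKM with NAD+, SD, n = 3 each; adjusted p = 0.028 by limma). Of the 6 fibroblast and meningeal genes, 1 passed the filter, and of the 5 ependymal and choroid plexus genes, 3 passed it, and 0 of either list were called by limma, with 0 and 1 at an unadjusted p-value under 0.05. Of the 10 microglia and macrophage genes, only Cd68 passed the filter and it was called higher (adjusted p = 0.0126 by limma). Under proliferating conditions 0 genes of these lists were called by limma, where 0.0484% of all 18597 genes tested were called higher and 0.0968% lower. Unadjusted p-values under 0.05 were found for 2 astrocyte, 3 oligodendrocyte and 2 progenitor genes. They were also found for 1 gene each of the microglia, neuronal and fibroblast lists, and for 0 of the endothelial and ependymal lists. The fibroblast gene was Pdgfra, which is also 1 of the 3 oligodendrocyte genes. The shares of all genes with an unadjusted p-value under 0.05 were not counted.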
